A study of Homo sapiens with 6 samples.

Results

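The MHC class I antigen presentation genes described here are HLA-B, HLA-C, HLA-E, B2M, TAP1, TAP2, TAPBP, PSMB8 and PSMB9. They were taken by gene name from the deposited count table of Panc-1, a human pancreatic cancer cell line of epithelial type, and make up 9 of its 58735 genes. RNA had been sequenced after 72 h in which wild-type Panc-1 shared a culture with cancer-associated fibroblasts (CAF) made to overexpress PAI-1, the group CAF-PAI-1, or with CAF that carried no such change in their label, the group CAF. Each group held 3 libraries, called biological replicates in the labels, and the count table heads the columns of CAF libraries CAF-NC, without saying what NC stands for. The labels give neither the origin of the CAF nor the way PAI-1 was overexpressed, nor do they state how the cancer cells were separated from the fibroblasts before RNA was taken. No group of Panc-1 without CAF was analysed here.

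MHC class I molecules show peptides from inside the cell to CD8+ T cells. Proteasomes cut proteins into peptides, and the immunoproteasome subunits PSMB8 and PSMB9 take the place of constitutive catalytic subunits when inflammatory signals are present. The transporter TAP1-TAP2 carries peptides into the endoplasmic reticulum, where tapasin (TAPBP) holds TAP beside an empty heavy chain and its light chain B2M until a peptide is bound. Interferons, NF-kappaB and the transactivator NLRC5 are known to drive these genes together, and many tumours lower them.

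Library totals were 15250915, 13992583 and 15880653 counts for CAF-PAI-1 replicates 1, 2 and 3, against 16006880, 15648564 and 13628508 counts for CAF replicates 1, 2 and 3. CAF-PAI-1 replicate 2 stood apart, with a chi-square per degree of freedom of 9.51 and 6.63 against the other libraries of its group, while all other pairs of a group lay between 2.58 and 3.72. Mitochondrial genes took 5.12%, 3.78% and 4.76% of counts in CAF-PAI-1 libraries, against 5.53%, 5.81% and 5.92% in CAF libraries (replicates 1 to 3). All CAF-PAI-1 libraries were lower than all CAF libraries, with CAF-PAI-1 replicate 2 the lowest. CPM are counts relative to the library total after its TMM scaling. All 7 epithelial markers exceeded 1 CPM in some library, with KRT8 at 1140 ± 75.3 CPM in CAF-PAI-1 libraries and 1015 ± 31.6 CPM in CAF libraries, and KRT18 at 751 ± 33.4 CPM and 581 ± 22.8 CPM (SD, n = 3 each). Both rose, as did KRT7 and KRT19, and CLDN4 fell with a log2 fold change of -0.32. The extraction text speaks of Cal27, a squamous line, with Stattic/DMSO, while all other labels name Panc-1. Whether any library here had received Stattic or DMSO cannot be told from these values. All 7 squamous markers stayed under 1 CPM in every library, as did 9 of 11 fibroblast, 5 of 7 leukocyte and 3 of 4 endothelial markers. The squamous SPRR1B and the leukocyte CD3E were at 0 counts in all libraries. The endothelial KDR rose to 1.85 ± 0.605 CPM in CAF-PAI-1 libraries, against 0.83 ± 0.221 CPM in CAF libraries, and the leukocyte markers CD14 and ITGAM did not pass, at 6.02 and 3.23 CPM in CAF-PAI-1 libraries and 5.52 and 2.40 CPM in CAF libraries. Of the remaining fibroblast markers, COL1A1 rose to 257 ± 16.5 CPM in CAF-PAI-1 libraries, against 186 ± 19.9 CPM in CAF libraries, and COL3A1 did not pass. The summed fibroblast list spanned 245 to 278 CPM in CAF-PAI-1 libraries and 171 to 208 CPM in CAF libraries, while its 9 low markers together had 44 counts in CAF-PAI-1 libraries and 57 in CAF libraries. The part of fibroblast RNA in the class I values was not tested. In bulk RNA, fewer cells of a type and less RNA per cell cannot be told apart.

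HLA-C, a classical heavy chain, and TAP1 were higher in Panc-1 with CAF-PAI-1, at 1.22 and 1.19 times their CAF levels, and the other 7 genes did not pass the test. All 9 genes passed the filter on low counts. In edgeR's quasi-likelihood test, 2 of 9 (22.2%) changed at a Benjamini-Hochberg adjusted p under 0.05, against 32.2% of the 14960 genes tested. Both were higher, where 17.2% of all tested genes were higher and 15% lower. The count of lower genes was 0 with edgeR, DESeq2 and limma-voom, and also at an unadjusted p under 0.05 in edgeR. A further gene, HLA-B, had an unadjusted p under 0.05. The median log2 fold change of the 9 genes was 0.02 and their range -0.15 to 0.28, beside a median of -0.0015 for all genes tested. The median absolute log2 fold change was 0.04 for the 9 genes and 0.21 for all genes tested. The CAF-PAI-1 and CAF libraries did not overlap for 2 of the 9 genes, both higher, against 43.4% of all genes tested (22.3% higher and 21.1% lower). Summed over the 9 genes, CAF-PAI-1 libraries held 1469 to 1555 CPM and CAF libraries 1433 to 1491 CPM.

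By GENCODE 29 on GRCh38, used here to identify genes and not as the alignment build, 8 of the 9 genes lie on chromosome 6 and B2M on chromosome 15 (chr15:44711487-44718877, plus strand). HLA-C spans chr6:31268749-31272130 on the minus strand. TAP1 spans chr6:32845209-32853978 on the minus strand, within the span of PSMB9 at chr6:32844136-32859585 on the plus strand. The TAP1 and PSMB9 genes share 0 exon bases.

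**Figure D1:**
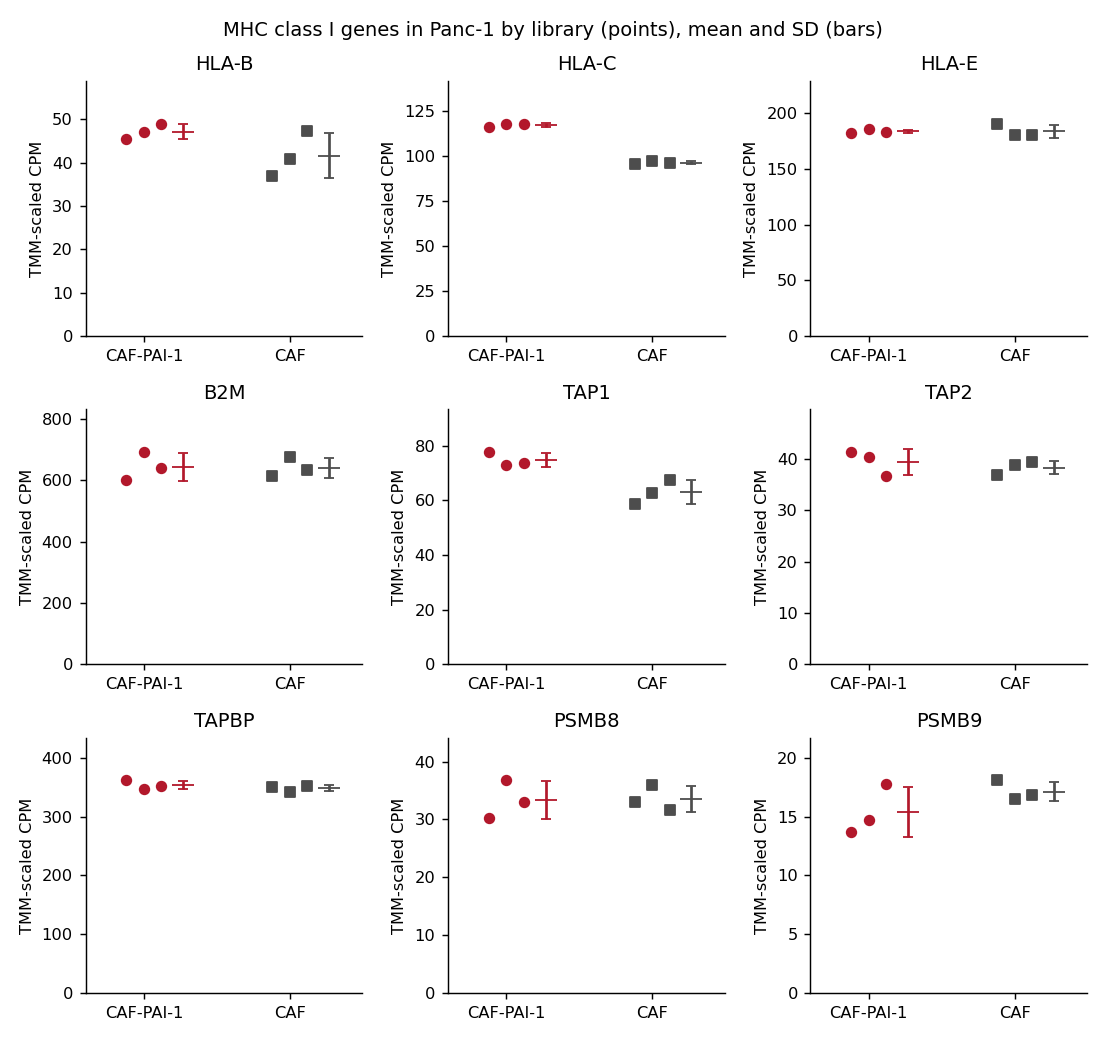
TMM-scaled CPM (vertical axes, from 0) of each of the 9 class I genes in every library, with CAF-PAI-1 as circles, CAF as squares, and the mean and SD of 3 libraries beside them. For HLA-C and TAP1 all CAF-PAI-1 points lie above all CAF points, and for the other 7 genes the groups overlap.

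HLA-C had 116, 118 and 117 CPM in CAF-PAI-1 replicates 1 to 3, against 95.5, 97.1 and 95.8 CPM in CAF replicates 1 to 3. All CAF-PAI-1 libraries were above all CAF libraries, with 18.6 CPM between the nearest of them. The group means were 117 ± 1.16 CPM and 96.1 ± 0.888 CPM (SD, n = 3 each), a log2 fold change of 0.28 with a standard error of 0.058 and a 95% interval of 0.17 to 0.40. This is a 1.22-fold level, with an adjusted p of 0.000228 in edgeR. Without CAF-PAI-1 replicate 2 the log2 fold change was 0.27 (adjusted p = 9.85e-05). HLA-C presents peptides to T cells and is the main class I ligand of the KIR receptors of natural killer cells.

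HLA-B, the classical heavy chain beside it on chromosome 6, had 45.4, 47.1 and 49.1 CPM in CAF-PAI-1 libraries, against 36.8, 40.8 and 47.3 CPM in CAF libraries. The groups overlapped, since CAF replicate 3 lay above CAF-PAI-1 replicates 1 and 2. The means were 47.2 ± 1.82 CPM and 41.6 ± 5.25 CPM (SD, n = 3 each), and the log2 fold change of 0.19 (standard error 0.081, interval 0.02 to 0.35) missed the threshold with an adjusted p of 0.0809 in edgeR. Without CAF replicate 3 it was 0.28 with an adjusted p of 0.0152, and without CAF replicate 1 it was 0.10 with an adjusted p of 0.415. It passed in 1 of the 6 fits that left out a library.

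HLA-E, a heavy chain of little variability that presents leader peptides of other class I chains to the NKG2A receptor, had 182, 185 and 183 CPM in CAF-PAI-1 libraries, against 191, 181 and 180.3 CPM in CAF libraries. The groups overlapped, and CAF replicate 1 was the highest of the 6. The log2 fold change was -0.0032 with an interval of -0.11 to 0.11 (adjusted p = 0.973, edgeR). B2M, the light chain that all of these heavy chains need at the surface, had 601, 692 and 639 CPM in CAF-PAI-1 libraries, against 613, 676 and 635 CPM in CAF libraries. In both groups replicate 2 was the highest and replicate 1 the lowest. Its log2 fold change was 0.01 with an interval of -0.11 to 0.12 (adjusted p = 0.944, edgeR).

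TAP1 had 77.7, 72.8 and 73.8 CPM in CAF-PAI-1 libraries, against 58.7, 62.7 and 67.5 CPM in CAF libraries. The groups did not overlap, with 5.32 CPM between the nearest libraries. The means were 74.8 ± 2.61 CPM and 63.0 ± 4.36 CPM (SD, n = 3 each), a log2 fold change of 0.25 with a standard error of 0.068, an interval of 0.11 to 0.39 and an adjusted p of 0.00461 in edgeR. This is a 1.19-fold level. Without CAF-PAI-1 replicate 2 the log2 fold change was 0.26 (adjusted p = 0.00135), and the weakest call, without CAF replicate 1, had an adjusted p of 0.0477.

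TAP2, the other chain of the transporter, had 41.4, 40.5 and 36.6 CPM in CAF-PAI-1 libraries, against 36.9, 38.7 and 39.3 CPM in CAF libraries. CAF-PAI-1 replicate 3 was the lowest of the 6, and the groups overlapped. The log2 fold change was 0.04 with an interval of -0.12 to 0.20 (adjusted p = 0.72, edgeR). TAPBP had 361, 348 and 352 CPM in CAF-PAI-1 libraries, against 351, 342 and 351 CPM in CAF libraries. These groups overlapped as well, and the log2 fold change of 0.02 had an interval of -0.08 to 0.13 (adjusted p = 0.77, edgeR).

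PSMB8 had 30.2, 36.8 and 33.0 CPM in CAF-PAI-1 libraries, against 33.0, 36.0 and 31.6 CPM in CAF libraries. The groups overlapped over most of their range, with a log2 fold change of -0.01 and an interval of -0.19 to 0.16 (adjusted p = 0.93, edgeR). PSMB9 had 13.7, 14.7 and 17.8 CPM in CAF-PAI-1 libraries, against 18.1, 16.5 and 16.8 CPM in CAF libraries. CAF-PAI-1 replicates 1 and 2 were below all CAF libraries, but replicate 3 was not. Its log2 fold change of -0.15 was the lowest of the 9, with an interval of -0.39 to 0.08 (adjusted p = 0.329, edgeR). PSMB9 was also the least covered of the 9 genes, and its standard error of 0.11 the largest.

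**Figure D2:**
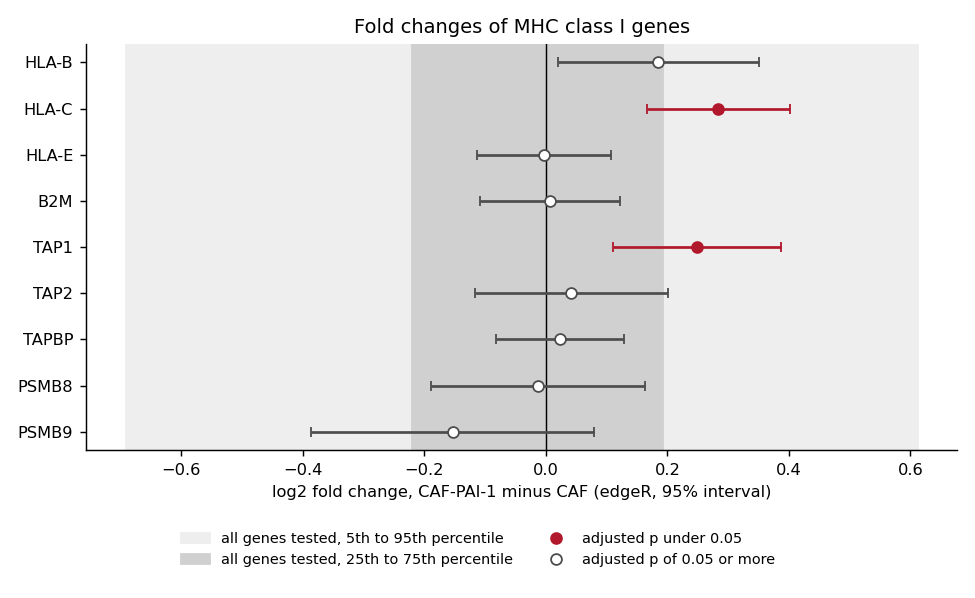
Log2 fold changes (CAF-PAI-1 minus CAF, horizontal axis) of the 9 class I genes from edgeR with 95% intervals, set against the spread of all 14960 genes tested. Only HLA-C and TAP1 passed the threshold, at 0.28 and 0.25, and the interval of HLA-B, 0.02 to 0.35, also lies above 0 without an adjusted p under 0.05.

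HLA-B, HLA-C, TAP1 and PSMB9 lie within the MHC of chromosome 6. Their upstream sequences are shown because HLA-C and TAP1 passed, and HLA-B and PSMB9 are their neighbours. The HLA-C to HLA-B ratio overlapped between the groups (log2 difference 0.096), so a different response of HLA-B and HLA-C was not shown. In the TAP1 to PSMB9 ratio all CAF-PAI-1 libraries were higher, by 0.41 on the log2 scale. RefSeq on GRCh38.p14 gave promoter sequence for 8 of the 9 genes, and the 250 bases before the most upstream start of each are used here. Capitals mark matches to a kappaB consensus (GGG, 2 bases of any kind, TT, 1 base of any kind, CC) and to AANNGAAA, the core that interferon regulatory factors bind, on either strand. The motifs were chosen with these sequences in view. All are written 5′ to 3′ on the strand of the gene. HLA-C is at chr6:31272093-31272342 (minus strand), HLA-B at chr6:31357180-31357429 (minus strand), TAP1 at chr6:32853705-32853954 (minus strand) and PSMB9 at chr6:32853942-32854191 (plus strand).
HLA-C: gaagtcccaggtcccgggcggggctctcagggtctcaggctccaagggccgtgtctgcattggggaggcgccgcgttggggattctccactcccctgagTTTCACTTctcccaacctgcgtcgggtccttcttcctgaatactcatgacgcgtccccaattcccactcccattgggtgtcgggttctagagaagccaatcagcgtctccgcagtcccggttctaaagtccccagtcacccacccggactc
HLA-B: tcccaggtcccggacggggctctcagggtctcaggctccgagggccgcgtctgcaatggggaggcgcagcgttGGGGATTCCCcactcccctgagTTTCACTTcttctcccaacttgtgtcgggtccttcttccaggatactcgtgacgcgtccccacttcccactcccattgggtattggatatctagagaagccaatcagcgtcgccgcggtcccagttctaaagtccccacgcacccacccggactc
TAP1: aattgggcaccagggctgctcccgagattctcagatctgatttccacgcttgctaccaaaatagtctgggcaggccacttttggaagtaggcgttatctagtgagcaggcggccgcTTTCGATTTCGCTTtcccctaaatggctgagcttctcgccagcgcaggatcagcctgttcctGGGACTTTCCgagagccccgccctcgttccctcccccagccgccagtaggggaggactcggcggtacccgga
PSMB9: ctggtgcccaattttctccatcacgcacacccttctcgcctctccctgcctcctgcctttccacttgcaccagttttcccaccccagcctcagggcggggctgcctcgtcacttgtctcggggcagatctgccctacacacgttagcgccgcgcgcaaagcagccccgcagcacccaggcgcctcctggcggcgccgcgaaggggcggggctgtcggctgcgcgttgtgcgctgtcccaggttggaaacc

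The windows of HLA-B and HLA-C were identical at 226 of 254 aligned columns (89%). In this reference sequence HLA-B held the kappaB match GGGGATTCCC, while HLA-C held GGGGATTCTC at the aligned place. This C9T difference ends the match (HLA-B base first, counted from 1 at the 5′ end of the match). Both reference windows held the same core letters TTTCACTT. The HLA alleles of Panc-1 itself were not read, so whether they carry this difference is not known. The kappaB pattern was found in 4 of the 8 promoters (HLA-B, B2M, TAP1 and TAPBP) and in 5.07% of 35116 promoters of the same length. The AANNGAAA core was found in 6 of 8, not in the windows of PSMB8 or PSMB9, and in 20.3% of all promoters. TGACG, the CRE-like X2 letters of the class I enhanceosome site, was found in 6 of 8 and in 21.2% of all, and CCAAT in 5 of 8 and in 32% of all. Since the motifs were chosen with these sequences in view, the shares are a description and no test of an excess. The shares over all promoters also count every start listed, not only the most upstream of a gene. TAP1 and PSMB9 are read in opposite directions from starts 488 bases apart, so that their windows overlap at the far ends. The AANNGAAA matches of TAP1 begin 134 and 128 bases before its start, and its kappaB match 72 bases before. They thus lie between the TAP1 and PSMB9 starts, upstream of PSMB9 too, but beyond the end of its window. Their absence from that window comes from where it was cut and is no difference in the sequence TAP1 and PSMB9 share. Matches are letters in a window, not sites shown to be bound, and their part in the results was not tested.

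Per length of the principal transcript the 9 genes spanned a wide range. B2M was highest, at 378 ± 26.9 CPM per kb in CAF-PAI-1 libraries and 376 ± 18.8 CPM per kb in CAF libraries (SD, n = 3 each, as for all levels per kb). TAPBP followed with 187 ± 3.70 and 184 ± 2.65 CPM per kb. HLA-C was at 76.2 ± 0.752 CPM per kb in CAF-PAI-1 libraries and 62.6 ± 0.578 CPM per kb in CAF libraries, while HLA-E was at 70.5 ± 0.622 and 70.7 ± 2.25 CPM per kb. By this length HLA-C was above HLA-E in CAF-PAI-1 libraries and below it in CAF libraries. The order depends on the lengths used, 1536 bases for HLA-C and 2601 for HLA-E. In counts not divided by length, HLA-C was below HLA-E in every library, with mean log2 ratios of -0.65 in CAF-PAI-1 and -0.93 in CAF libraries. Below them came PSMB8 with 29.6 ± 2.93 and 29.8 ± 1.97 CPM per kb, HLA-B with 30.5 ± 1.18 and 26.9 ± 3.40, TAP1 with 25.3 ± 0.882 and 21.3 ± 1.47, and PSMB9 with 19.7 ± 2.72 and 21.9 ± 1.07, in CAF-PAI-1 and CAF libraries. In this stretch each gene overlapped its neighbour in the order over the 6 libraries. TAP2 was lowest, at 15.8 ± 1.01 CPM per kb in CAF-PAI-1 libraries and 15.3 ± 0.509 CPM per kb in CAF libraries, and did not overlap PSMB9.

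Ratios within a library do not depend on how libraries are scaled. They were compared by an exact two-sided permutation test, in which 3 libraries against 3 cannot give a p under 0.1, and adjusted over 8 ratios. TAP1 stood at 159%, 152% and 170.1% of TAP2 per length in CAF-PAI-1 libraries, against 134%, 137% and 145% in CAF libraries. HLA-C stood at 107.6%, 107.8% and 108.7% of HLA-E per length in CAF-PAI-1 libraries, against 84.8%, 91.0% and 90.0% in CAF libraries. TAP1 stood at 150.2%, 130.4% and 109.7% of PSMB9 in CAF-PAI-1 libraries, against 85.8%, 100.5% and 105.9% in CAF libraries. In these 3 ratios, chosen after their values were seen, all CAF-PAI-1 libraries were higher, by 0.21, 0.29 and 0.41 on the log2 scale, which is given as a description with no test. HLA-C against HLA-B, chosen in the same way, averaged 249.9% ± 7.99 in CAF-PAI-1 libraries and 235% ± 28.7 in CAF libraries and overlapped.

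The immunoproteasome subunits were set against the constitutive subunits they replace. PSMB8 stood at 34.3%, 35.7% and 33.7% of PSMB5 in CAF-PAI-1 libraries, against 36.3%, 38.9% and 37.1% in CAF libraries. All CAF-PAI-1 libraries were lower, with a log2 difference of -0.12 (exact permutation p = 0.1, adjusted 0.2). PSMB9 averaged 13.4% ± 2.52 of PSMB6 in CAF-PAI-1 libraries and 14.2% ± 1.14 in CAF libraries, and the groups overlapped (exact permutation p = 0.7). PSMB10, the remaining immunoproteasome catalytic subunit, averaged 2.90% ± 0.648 of PSMB7 in CAF-PAI-1 libraries and 3.17% ± 0.117 in CAF libraries (exact permutation p = 0.6). The summed heavy chains HLA-B, HLA-C and HLA-E averaged 47.0% ± 2.85 of B2M in CAF-PAI-1 libraries and 42.7% ± 2.23 in CAF libraries, with overlap (exact permutation p = 0.3).

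**Figure D3:**
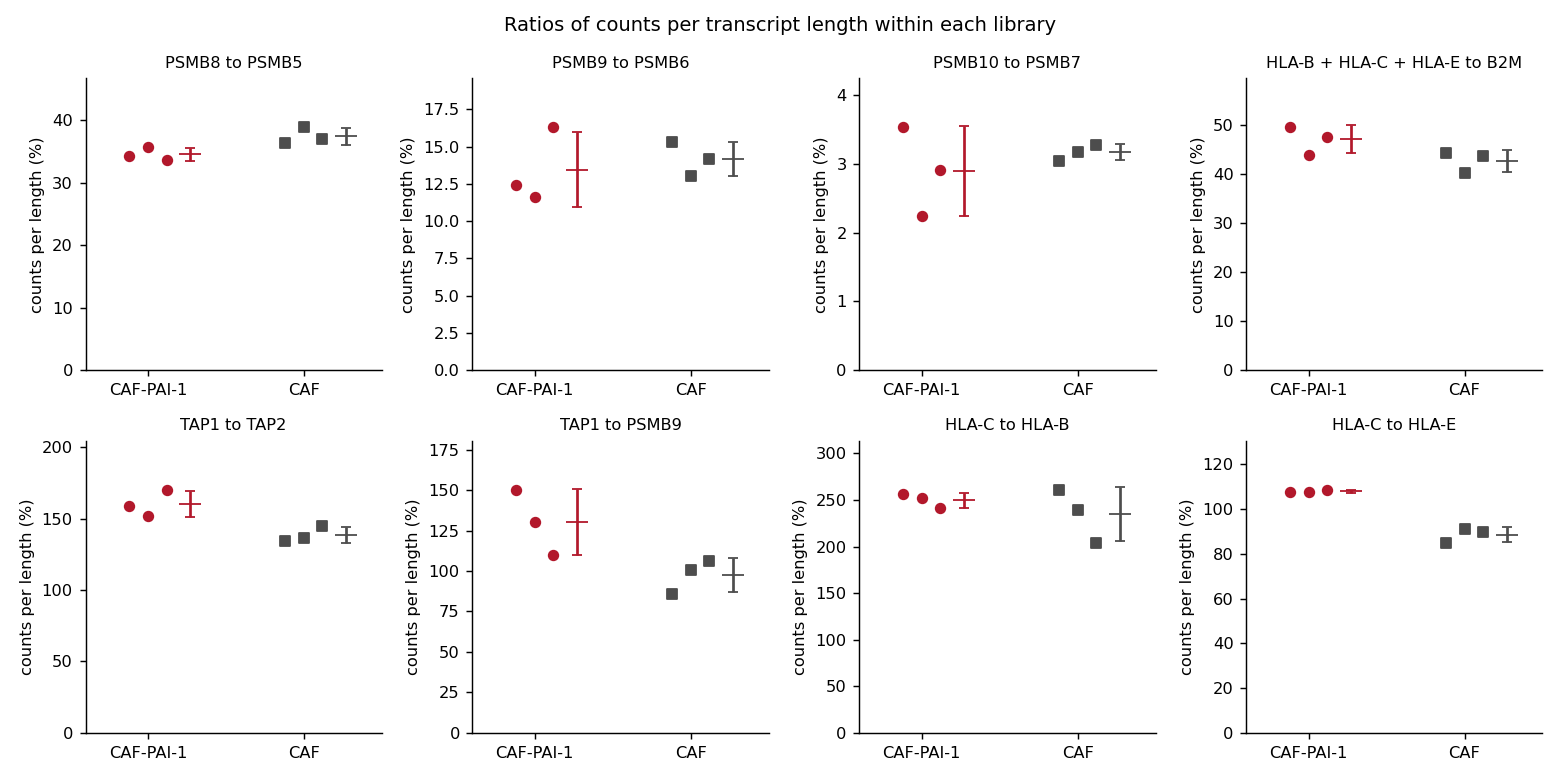
Ratios of class I genes within each library, in percent per length of the principal transcript, for CAF-PAI-1 and CAF libraries, one point per library. The groups are apart for TAP1 to TAP2, TAP1 to PSMB9, HLA-C to HLA-E (all CAF-PAI-1 points higher) and PSMB8 to PSMB5 (all CAF-PAI-1 points lower), and overlap for the other 4 ratios.

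Among known regulators of class I transcription, 5 of 31 tested genes were higher and 6 lower with CAF-PAI-1, with a median log2 fold change of 0.02. Over all 14960 genes tested, 17.2% were higher and 15% lower, so the regulators changed about as often as any genes. NFKB1, which encodes the p105 precursor and p50 subunit of NF-kappaB, had 101.5, 93.2 and 90.0 CPM in CAF-PAI-1 libraries, against 54.6, 56.9 and 65.4 CPM in CAF libraries. IRF1, an interferon-induced activator of class I promoters, had 93.1, 91.3 and 82.3 CPM in CAF-PAI-1 libraries, against 51.2, 58.6 and 61.4 CPM in CAF libraries. For both genes every CAF-PAI-1 library was above every CAF library, and they rose by log2 fold changes of 0.69 (standard error 0.071, adjusted p = 1.68e-09) and 0.64 (standard error 0.072, adjusted p = 1.01e-08, edgeR). RFX5, a subunit of the RFX complex that binds the X box of MHC promoters, fell to 37.2, 35.7 and 43.1 CPM in CAF-PAI-1 libraries, against 61.4, 60.4 and 57.0 CPM in CAF libraries. Its log2 fold change was -0.62 (standard error 0.077, adjusted p = 6.80e-08, edgeR), again without overlap. The groups did not overlap for 43.4% of all genes tested. The other genes of the list that passed were named after their values were seen. SOCS3, an inhibitor of JAK signalling, rose by 0.47 on the log2 scale, EED of the polycomb complex PRC2 by 0.25 and RELA, the p65 subunit of NF-kappaB, by 0.22. STAT2 and IRF2 fell with log2 fold changes of -0.44 each, CREB1 with -0.28, NFYC with -0.21 and TYK2 with -0.17. With 1 library left out, IRF2 lost its call without CAF-PAI-1 replicate 2 (adjusted p = 0.0501, edgeR) and CREB1 without CAF replicate 2 (0.0637). NFYC lost it without CAF-PAI-1 replicate 2 or CAF replicate 1 or 2 (up to 0.110), EED without CAF-PAI-1 replicate 2 or CAF replicate 2 or 3 (up to 0.138), and TYK2 without CAF-PAI-1 replicate 3 or CAF replicate 1, 2 or 3 (up to 0.229). NLRC5, the class I transactivator, was at 3.19 ± 0.998 CPM in CAF-PAI-1 libraries and 3.17 ± 0.539 CPM in CAF libraries (log2 fold change 0.02, standard error 0.24, adjusted p = 0.957), too few counts to see a moderate change.

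Of the genes for peptide loading, trimming and quality control, 0 of 15 were higher and 1 was lower, with 14 that did not pass (edgeR; median log2 fold change 0.06). The shares over all genes tested were 17.2% higher and 15% lower. At an unadjusted p under 0.05 these counts were 3 and 1, and DESeq2 gave 0 and 1. The one that fell, LNPEP, an aminopeptidase used in cross-presentation, was at 93.2 ± 6.44 CPM in CAF-PAI-1 libraries and 110.6 ± 2.30 CPM in CAF libraries (log2 fold change -0.25, adjusted p = 0.00214). The chaperones of the loading complex gave log2 fold changes of 0.07 for calreticulin (CALR), 0.11 for calnexin (CANX) and 0.16 for ERp57 (PDIA3), with adjusted p-values of 0.306, 0.113 and 0.0524. Among immunoproteasome partners and constitutive subunits, 1 of 10 was higher and 0 lower (median 0.0039). At an unadjusted p under 0.05 these counts were 2 and 0 in edgeR, and DESeq2 gave 0 and 0. PSME3, a proteasome activator of the nucleus, was at 149 ± 8.55 CPM in CAF-PAI-1 libraries and 134 ± 4.16 CPM in CAF libraries (log2 fold change 0.15, adjusted p = 0.0392), a call lost when any of CAF-PAI-1 replicate 1 or CAF replicates 1, 2 and 3 was left out, with adjusted p-values up to 0.217.

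The list of other class I and class I-like heavy chains had 10 of 14 genes tested, with 1 higher and 2 lower (median -0.06). For this list and those that follow, the shares over all genes tested were 17.2% higher and 15% lower. MICB, a stress-induced ligand of the NKG2D receptor, fell to 52.3 ± 3.03 CPM in CAF-PAI-1 libraries, against 71.7 ± 2.31 CPM in CAF libraries (log2 fold change -0.45, adjusted p = 2.83e-06). ULBP1, another NKG2D ligand, rose to 7.41 ± 1.09 CPM in CAF-PAI-1 libraries, against 3.65 ± 0.786 CPM in CAF libraries (log2 fold change 1.02, adjusted p = 6.10e-05). HFE, which binds the transferrin receptor, fell with a log2 fold change of -0.26 (adjusted p = 0.0378), and lost its call without CAF-PAI-1 replicate 1 or 2 or CAF replicate 2, with adjusted p-values up to 0.263. In the list for class I turnover and surface removal, 3 of 13 were higher and 3 lower (median 0.05). TRIM21, an antibody receptor and ubiquitin ligase, rose to 32.8 ± 3.47 CPM in CAF-PAI-1 libraries, against 22.5 ± 2.97 CPM in CAF libraries (log2 fold change 0.54, adjusted p = 6.31e-05). UBE2J2, a ubiquitin-conjugating enzyme of the endoplasmic reticulum, rose by 0.32 and TMEM129, a ubiquitin ligase used by a viral protein to remove class I, fell with -0.26 (adjusted p = 0.000111 and 0.00528). The others that passed, named after their values were seen, were UBE2J1 with 0.21, NBR1 with -0.20 and WWP2 with -0.25. UBE2J1 lost its call in 5 of the 6 fits with 1 library left out, all but that without CAF-PAI-1 replicate 2 (adjusted p up to 0.185, edgeR). NBR1 lost it without CAF replicate 2 or 3 (up to 0.135) and WWP2 without CAF-PAI-1 replicate 2 or CAF replicate 3 (up to 0.0933). Of the class II pathway, 10 of 14 genes were under 1 CPM in every library and 0 of the 4 tested passed in edgeR or DESeq2, with 1 lower at an unadjusted p under 0.05. CTSS, a protease of class II processing, was at 2.53 CPM in CAF-PAI-1 libraries and 3.51 CPM in CAF libraries (log2 fold change -0.48, adjusted p = 0.137), and passed without CAF-PAI-1 replicate 2 (adjusted p = 0.0279). HLA-DMA, a class II peptide exchange factor, was at 1.18 CPM in CAF-PAI-1 libraries and 1.99 CPM in CAF libraries (log2 fold change -0.75, adjusted p = 0.0713).

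**Figure D4:**
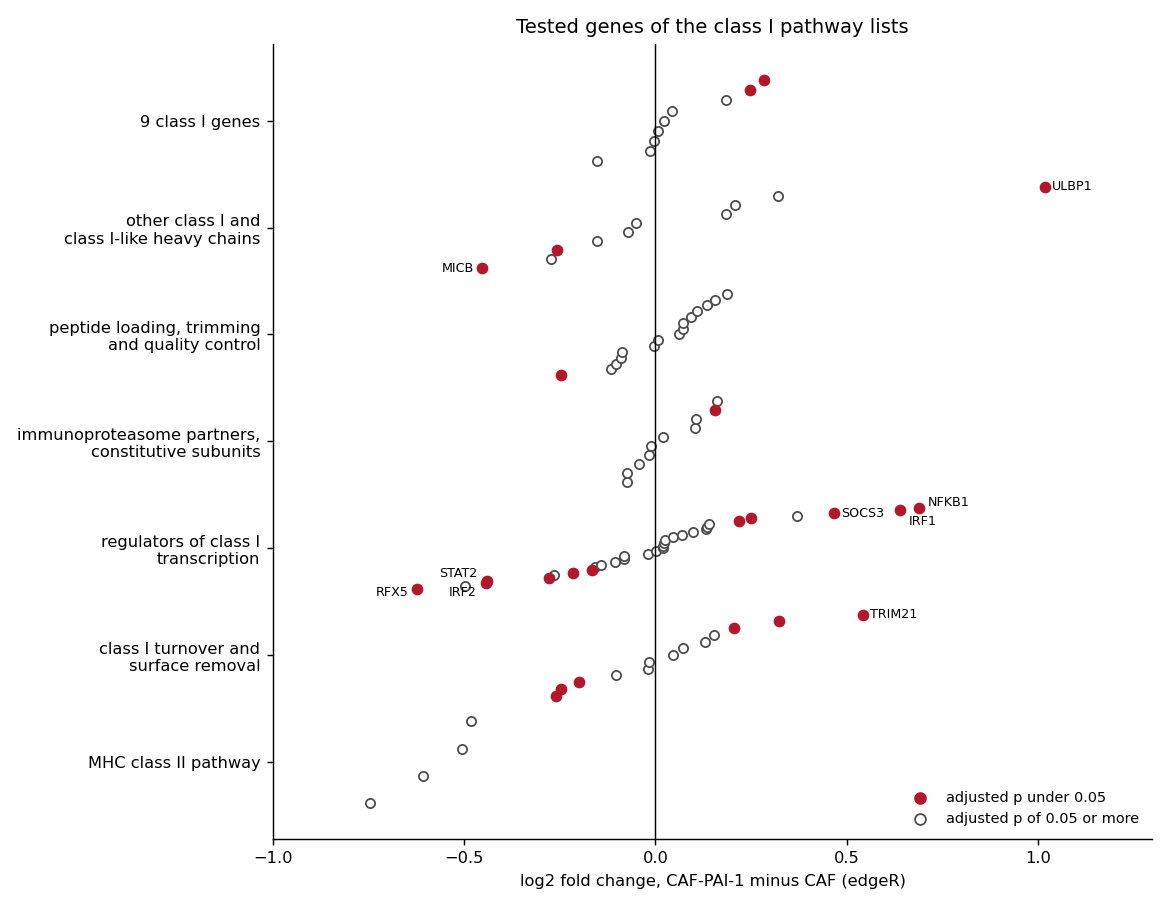
Log2 fold changes (CAF-PAI-1 minus CAF) of the tested genes of each class I pathway list, filled where the adjusted p was under 0.05. The 9 class I genes lie between -0.15 and 0.28, while regulators range from RFX5 at -0.62 to NFKB1 at 0.69 and ULBP1 lies at 1.02.

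The class I heavy chains are close copies of each other, and no source used here says how shared reads were assigned. Of all 50-base stretches of their transcripts, 5.38% in HLA-C, 4.34% in HLA-E and 2.72% in HLA-B also occur in another gene, and of all 100-base stretches 0.126%, 0.491% and 0. With HLA-B, HLA-C, HLA-E, HLA-F and HLA-G summed into a single value, the log2 fold change was 0.11 with a standard error of 0.051 and did not pass (adjusted p = 0.0939, edgeR). TAP2 shares 32.3% of its exon bases with the annotated gene AL669918.1, and 31.3% of its 50-base stretches occur elsewhere, so its level is uncertain. PSMB8 shares 20.6% and TAP1 9.49% of exon bases with PSMB8-AS1, which is antisense to both. PSMB9 shares 5.66% with PSMB8-AS1 on its own strand. HLA-B shares 17.8% of exon bases with the pseudogene AL671883.2 on the other strand, and 35 exon bases with HLA-C on its own strand. PSMB8 and PSMB9, on opposite strands, share 139 exon bases. No source used here says whether counting used strand. Among 9530 other genes, DNAJC17 had the profile over the 6 libraries most like the mean of the 9 genes (Pearson r = 0.991 of log2 CPM). SRSF3 and TYW1 followed (0.988 each), as a description over libraries that share the group difference. Between pairs of the 9 genes r ran from -0.94 (TAP2 and PSMB9) to 0.92 (B2M and PSMB8), so the mean does not stand for each of them.

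**Figure D5:**
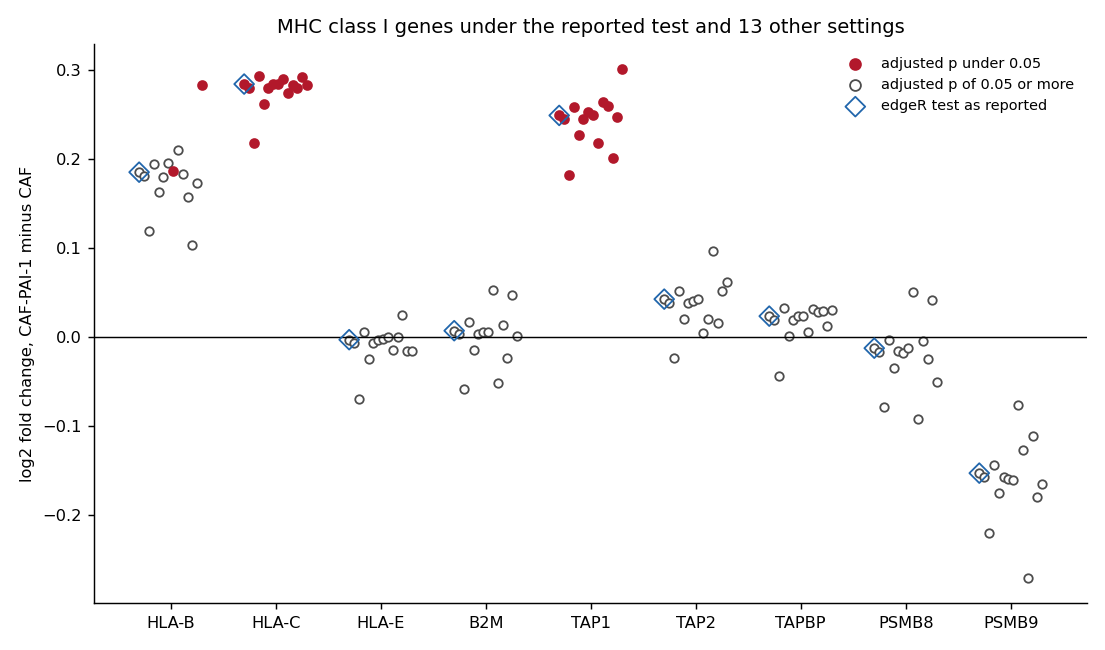
Log2 fold changes (CAF-PAI-1 minus CAF) of the 9 class I genes under each alternative scaling, filter, model and left-out library, filled where the adjusted p was under 0.05. HLA-C lay between 0.22 and 0.29 and TAP1 between 0.18 and 0.30 and both passed in every setting, while HLA-B passed only with the replicate number as a block and without CAF replicate 3.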

How the data were processed

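Poly(A)-selected RNA of Panc-1 was sequenced in 6 libraries, 3 with CAF-PAI-1 and 3 with CAF, per the labels. The authors deposited a table of whole-number counts per gene. RSEM, Bowtie2, BWA and the build hg19 are named in the submitters' processing notes, without versions or roles. All 58735 gene identifiers are those of GENCODE 29, an annotation of GRCh38, which differs from hg19. No source used here says whether counting used strand. The labels call the libraries of a group biological replicates and do not describe how the cultures were set up, so the p-values cover how these libraries vary. Totals of 13628508 to 16006880 counts make 3 counts worth 0.187 to 0.22 CPM.

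Counts were tested as CAF-PAI-1 minus CAF with edgeR 4.0.16 in R 4.3.3 (filterByExpr with minimum count 10 and minimum total 15, TMM, robust glmQLFit and glmQLFTest, no covariates). Benjamini-Hochberg adjustment ran over all 14960 genes that passed, with a threshold of 0.05, and adjusted p-values of genes are those of edgeR where no other tool is given. Standard errors are log2 fold changes over the square root of F. Log2 ratios and their permutation tests used counts plus 0.5, not divided by length. Ratios in percent used counts per length of the principal transcript, with nothing added. Levels per kb used the principal transcript of GENCODE 29. No pair of libraries of a group was a duplicate, by chi-square over genes with at least 20 counts per pair. The scripts were checked on simulated data, with 100 genes changed 2-fold and 100 changed 1.5-fold. The edgeR test recovered 85 and 62 of them, and 14 of its 161 calls were false. Changes as small as those of HLA-C and TAP1 were not simulated.

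The members, lists and ratios were chosen with earlier results of these data known. Apart from the 9 genes, the rule for naming genes took the 3 with the smallest p of each list among those that passed, or the 2 most abundant where none did, with PSMB5, PSMB6, PSMB7, PSMB10, the 2 most abundant of each marker list where they reach 1 CPM and the 3 genes with the profile most like that of the 9. A gene that this rule also takes is not reported here. Named outside the rule, after their values were seen, were CALR, CANX, PDIA3, NLRC5, KRT7, KRT19, CLDN4, SPRR1B, CD3E, SOCS3, RELA, EED, STAT2, IRF2, CREB1, NFYC, TYK2, UBE2J1, NBR1 and WWP2. The labels do not say that replicate numbers pair the samples, and the main test did not pair them. Alternatives were RLE scaling, library size alone, no filter, a mean of at least 10 CPM, DESeq2 1.42.0, limma-voom (limma 3.58.1), the replicate number as a block, summed heavy chains and each library left out in turn. 4 ratios (TAP1 to TAP2, TAP1 to PSMB9, HLA-C to HLA-B and HLA-C to HLA-E) were added after seeing the data.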

Additional observations from a re-analysis of the deposited data

How the results depend on the processing

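HLA-C and TAP1 passed under all 13 alternative settings, with log2 fold changes of 0.22 to 0.29 and 0.18 to 0.30. The number of the 9 class I genes called higher was 2 except with the replicate number as a block (3), with heavy chains summed (1) and when a library was left out (2 to 3), and 0 were lower throughout. The block gave HLA-B 0.19 with an adjusted p of 0.0482, and higher counts of 2 for loading and 2 for immunoproteasome partners. Whether the numbers pair the samples is not stated in the labels. Same-number correlations between the groups were 0.0023, 0.012 and 0.0063, and those of unlike numbers -0.010 to 0.0047. With library size alone, 1839 genes were higher and 3182 lower, against 2571 and 2239 with TMM. The loading list then had 3 lower, immunoproteasome partners 0 higher and class II 1 lower, and B2M (-0.059), TAP2 (-0.024) and TAPBP (-0.044) changed sign. Without a filter the class I-like list had 1 lower, the loading list 1 higher and HLA-E 0.0059. With a mean of at least 10 CPM, class I-like and immunoproteasome lists had 0 higher each and B2M was -0.015. DESeq2 gave the class I-like list 1 lower and immunoproteasome partners 0 higher. The cause of these changes was not tested.

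With a library left out, all genes called changed numbered 3942 to 4673. Higher and lower counts were 4 to 5 and 3 to 6 for regulators, 2 to 4 and 1 to 4 for turnover, 0 to 1 and 1 to 2 for loading, and 0 to 1 and 0 to 1 for immunoproteasome partners. Lower counts were 1 to 2 for class I-like chains and 0 to 1 for class II. Differences in log2 ratios were -0.0014 to 0.18 for HLA-C to HLA-B, -0.31 to 0.02 for PSMB10 to PSMB7 and -0.23 to 0.01 for PSMB9 to PSMB6, PSMB10 to PSMB7 with 0.019 and PSMB9 to PSMB6 with 0.01 without CAF-PAI-1 replicate 2. Log2 fold changes of both signs were found for PSMB8 (-0.092 without CAF-PAI-1 replicate 2 to 0.050 without CAF-PAI-1 replicate 1), B2M (-0.052 without CAF-PAI-1 replicate 2 to 0.052 without CAF-PAI-1 replicate 1) and HLA-E (-0.016 without CAF replicate 3 to 0.024 without CAF replicate 1). Of 22 pathway genes called, 12 kept their call in all 6 and 10 lost it in at least 1. HFE, TYK2, EED and UBE2J1 passed in 5 and PSME3 in 4 of the other 7 settings. PSMB9 had the fewest counts of the 9 genes, and with 3 libraries a group no ratio could reach a p under 0.1.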
